A study of Mus musculus with 38 samples.

Results

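Rbp2, Sis, Alpi, Anpep, Vil1, Slc5a1, Slc15a1, Mep1a and Dpp4 are 9 genes of the absorptive enterocyte, the cell of the intestinal lining that digests and takes up nutrients. They were taken by symbol from the 54352 Ensembl rows of the count table, and each of the 9 symbols had 1 row. Of these, 7 passed the filter on low counts, which 4902 of the 20192 genes with a count passed, and Slc15a1 and Mep1a did not. The samples were intestinal stem cell organoids of C57BL6 mice, cultured from crypts in 65% matrigel for 8 days and 2 passages. They received 1 uM GW501516 (GW), which activates the nuclear receptor PPARδ, in 0.1% DMSO, or 0.1% DMSO alone as vehicle. Organoids labelled Ppard-fl/fl; Ppara-null (DA) gave 5 GW and 4 vehicle libraries, and organoids labelled Ppara-null (A) gave 5 and 5. Organoids labelled Ppard-fl/fl (D) gave 3 GW and 5 vehicle libraries, and wild-type organoids (WT) gave 5 and 5. Ppard encodes PPARδ, Ppara encodes the related PPARα, and no label names a recombinase that would delete the floxed Ppard allele. The RNA was polyadenylated and read as tags from the 3′ ends of transcripts.

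Enterocytes carry on their luminal face a brush border of microvilli, into which digestive enzymes and nutrient carriers are set. Sugars and peptides are split there by hydrolases and cross the membrane through sodium- or proton-coupled transporters, while fatty acids and retinol are handled inside the cell by small binding proteins. PPARδ and PPARα sense fatty acids and, paired with the retinoid X receptor, bind DNA at direct repeats of AGGTCA with 1 base between them. In the rat, the Rbp2 promoter is a known target of the retinoid X receptor, and in human and mouse the sucrase-isomaltase promoter is a known target of the intestinal factor Cdx2, which binds TTTAT elements.

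The promoters of 3 members are shown because Rbp2 was the only member to pass a genotype test, and because Sis and Slc5a1 varied together. Each is the RefSeq stretch (GRCm38.p6, the mm10 assembly) from 250 bases before to 50 bases after the gene's start, written 5′ to 3′ on the gene's strand, 300 bases each. Rbp2 lies at chr9:98490287-98490586 on the plus strand, Sis at chr3:72967814-72968113 on the minus strand and Slc5a1 at chr5:33103969-33104268 on the plus strand. Capitals mark matches, on either strand, to AGGTCANAGGTCA with at most 2 mismatches or to TTTAT, and adjoining matches run together.
Rbp2: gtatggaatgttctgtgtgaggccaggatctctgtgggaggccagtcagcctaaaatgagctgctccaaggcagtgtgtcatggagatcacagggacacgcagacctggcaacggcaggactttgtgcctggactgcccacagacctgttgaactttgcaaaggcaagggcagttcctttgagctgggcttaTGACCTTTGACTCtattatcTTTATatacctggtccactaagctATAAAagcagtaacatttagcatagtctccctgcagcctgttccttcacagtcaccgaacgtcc
Sis: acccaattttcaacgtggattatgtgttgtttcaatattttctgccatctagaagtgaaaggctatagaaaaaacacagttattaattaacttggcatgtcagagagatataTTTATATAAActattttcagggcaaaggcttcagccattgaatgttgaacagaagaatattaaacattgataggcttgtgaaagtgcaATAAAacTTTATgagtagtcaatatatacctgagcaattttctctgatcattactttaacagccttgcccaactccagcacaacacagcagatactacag
Slc5a1: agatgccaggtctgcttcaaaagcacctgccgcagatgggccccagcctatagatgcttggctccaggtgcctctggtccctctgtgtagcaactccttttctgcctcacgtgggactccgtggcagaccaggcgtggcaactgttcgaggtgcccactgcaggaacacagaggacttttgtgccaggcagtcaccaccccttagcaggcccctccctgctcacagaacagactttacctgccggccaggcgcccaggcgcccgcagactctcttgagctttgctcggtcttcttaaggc

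Of the 32851 RefSeq mouse promoters of this length, 3.86% held AGGTCANAGGTCA with at most 2 mismatches, and among the 9 members Rbp2, Alpi and Vil1 did. The Rbp2 match lay on the opposite strand from -58 to -46 relative to the start, and from -58 to -53 it held an exact AGGTCA, which 16.3% of all promoters held. With at most 1 mismatch the share of all promoters was 0.554%, and no member had such a match. TTTAT was in 40.0% of all promoters and, among the 9 members, in those of Rbp2, Sis, Alpi, Dpp4 and Mep1a. The Sis promoter held 4 copies, beginning at -138, -133, -50 and -43, and Rbp2 held 2, beginning at -38 and -14. The share of promoters with as many copies was not computed, and G and C made up only 34% of the Sis window. These copies are matches of letters only, and whether Cdx2 binds any of them was not tested. The letters searched were not in the Slc5a1 window. The start used for Rbp2 lies inside the GENCODE gene, which begins further upstream, so other starts have other windows.

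Library totals were 353347 to 577557 counts, with a median of 483848, and mitochondrially encoded transcripts took 7.55% to 10.6%. The libraries fell into 23 with column numbers from 1 to 36 and 14 from 37 to 56, and 24.2% of the 4902 genes differed between these runs of numbers in a fit with group as a term. Xist was above the sum of Y-linked genes in 18 of the 23 lower-numbered libraries and below it in the other 5 and in all 14 higher-numbered ones. Of 4 columns named GW in D, 1 was not used, because 1 sample with that title carried the genotype label of DA. No label links that sample to a column. By group, the other samples ran in the same order as the columns used, which would place that sample outside the 3 columns used. Whether the libraries of a group stem from separate mice or cultures is not given, so p-values measure only the spread between these libraries. Markers of other epithelial cell types were present: 6 Paneth genes summed to 8308 to 16386 CPM (counts per 1000000 of the library total), 7 goblet genes to 2949 to 6527 CPM and 10 stem cell genes to 217 to 498 CPM. Over all 37 libraries, 5 stromal genes had 1 count and 4 tuft cell genes had 10 counts. In bulk RNA such as this, fewer cells of a type and less RNA per cell cannot be told apart.

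All 7 members above the filter were read in every library. Rbp2 had 29 to 120 counts per library, Sis 30 to 125, Alpi 42 to 124, Vil1 28 to 84, Slc5a1 14 to 82, Dpp4 9 to 45 and Anpep 7 to 43. The spread between libraries of 1 group, as a coefficient of variation over all groups, was 34.1% for Anpep, 33.5% for Dpp4 and 32.7% for Slc5a1. These had the lowest counts, but Sis followed at 31.1% although only Alpi had more counts in all. Rbp2 had the smallest spread, 23.7%. Counting alone would give 22.7% for Anpep and 12.8% for Rbp2. The highest group mean exceeded the lowest by 1.83-fold for Rbp2, the widest ratio among the 7, followed by 1.73-fold for Sis, 1.70-fold for Anpep and 1.69-fold for Slc5a1. Vil1 at 1.24-fold and Alpi at 1.29-fold had the narrowest.

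**Figure D1:**
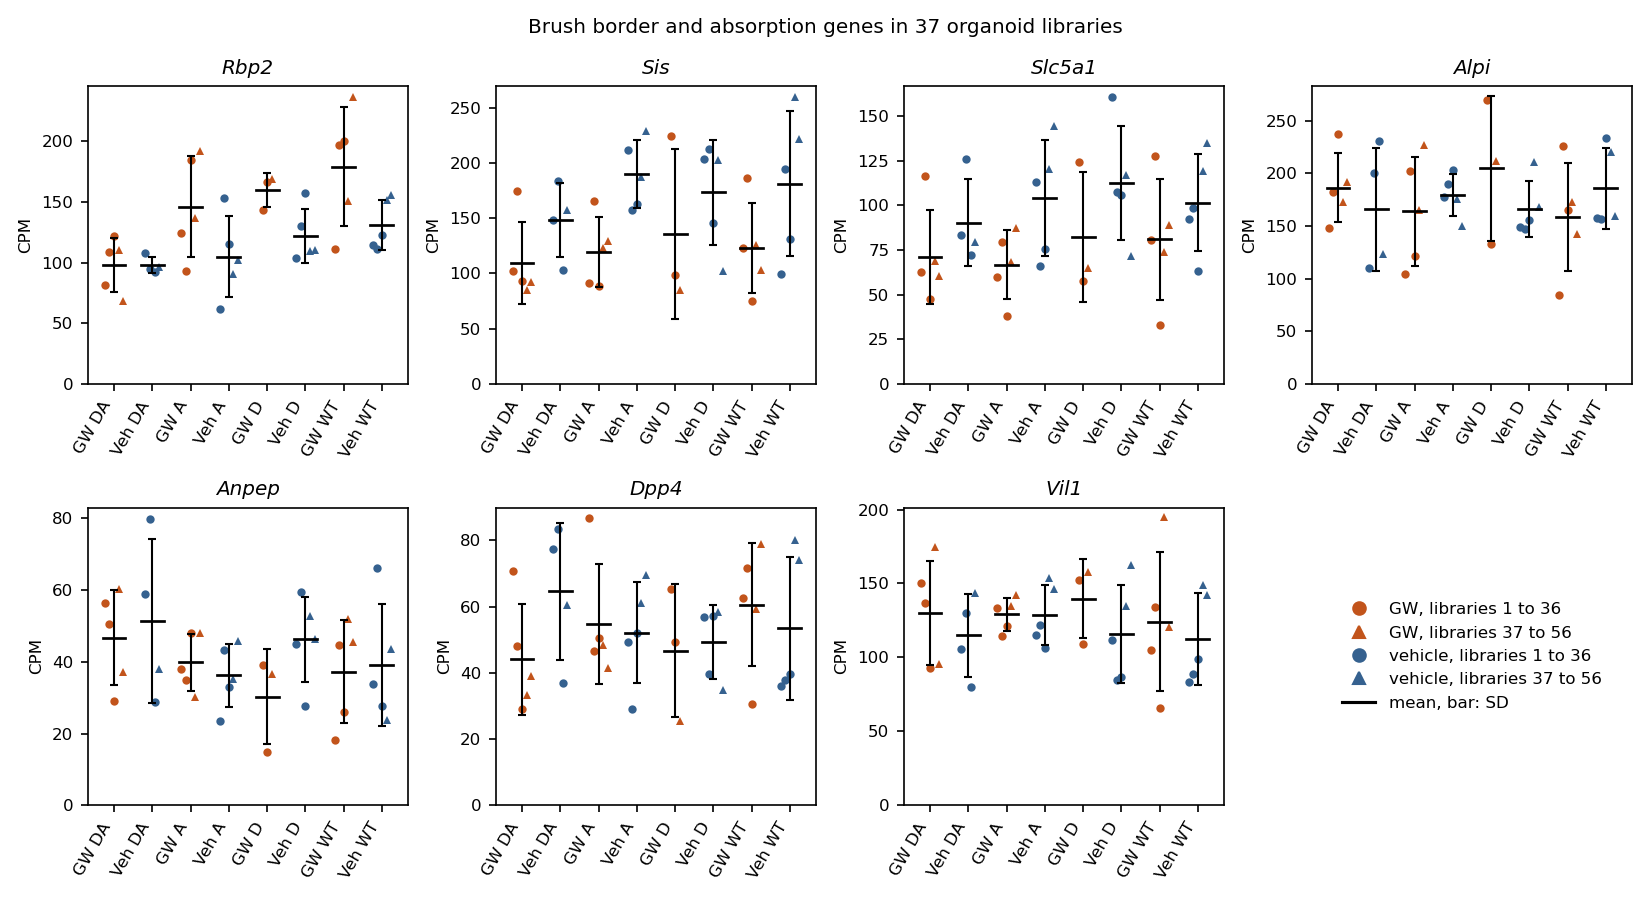
CPM of the 7 members above the filter in each of the 37 libraries, by group (GW left of vehicle, DA, A and D left of WT); points are libraries, circles numbered 1 to 36 and triangles 37 to 56, horizontal lines are group means and bars are SD. Rbp2 is highest in GW WT (179 CPM) and lowest in Veh DA (97.8 CPM), and Sis and Slc5a1 sit lower under GW than in vehicle in each genotype.

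Rbp2 encodes the cellular retinol-binding protein of the enterocyte, which carries retinol taken up from the diet to the enzymes that esterify it (chromosome 9, 98486115 to 98509781, plus strand, ENSMUSG00000032454). Under GW it was lower in DA than in WT organoids, and it was the only member to pass the adjusted threshold of 0.05 in any of the 13 comparisons between groups or responses. Rbp2 had 81.3, 109, 122, 110.1 and 68.3 CPM in GW-treated DA organoids, against 111, 197, 200.1, 151 and 237 CPM in GW-treated WT organoids. The 5 DA libraries were thus below 4 of the 5 WT libraries, and the groups overlapped through the single WT library at 111 CPM. The means were 98.1 ± 22.4 CPM in DA and 179 ± 48.8 CPM in WT (SD, n = 5 each).

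The fitted fold for Rbp2 was 0.54, or -0.89 ± 0.22 on the log2 scale (SE), and it passed edgeR's quasi-likelihood test at a p of 0.0382 after Benjamini-Hochberg (BH) adjustment over all genes tested; later tests are the same unless another is named. In this comparison 0.836% of the 4902 genes passed, 0.592% of them lower, so 1 of 7 members stood beside 29 lower genes in all. The call was lost when any of 6 libraries was left out, namely replicates 2, 3 and 5 of GW in WT and replicates 1, 4 and 5 of GW in DA, with BH-adjusted p of 0.0702 to 0.168 by edgeR and log2 fold changes of -0.77 to -0.93. Within libraries 1 to 36 the log2 fold change was -0.73 and within libraries 37 to 56 it was -1.14, and neither passed (edgeR, BH-adjusted p = 0.703 and 0.0667).

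In vehicle the same contrast had the same sign and did not pass. Rbp2 had 108, 94.5, 92.5 and 96.5 CPM in vehicle-treated DA organoids, against 115, 112, 123, 151 and 155 CPM in vehicle-treated WT organoids. All 4 DA libraries lay below all 5 WT libraries, as they did for 0.714% of the 4902 genes. The difference was -0.48 ± 0.24 on the log2 scale (SE, BH-adjusted p = 0.812 by edgeR, where 0.326% of genes passed). A and D had means between those of DA and WT: under GW the Rbp2 means were 146 ± 41.6 CPM in A (SD, n = 5) and 159.9 ± 14.1 CPM in D (SD, n = 3), and in vehicle 105 ± 33.4 CPM in A and 122 ± 22.2 CPM in D (SD, n = 5 each). Against WT these gave log2 fold changes of -0.31 ± 0.22 in A and -0.12 ± 0.25 in D under GW, and of -0.39 ± 0.22 in A and -0.07 ± 0.22 in D in vehicle (SE), and none passed. The genotypes thus had the same order of means, DA, A, D and WT from low to high, in both treatments, and neighbours in that order differed by less than the larger of their SDs, except DA and A under GW, which were not tested against each other. The 2 treatments share no libraries, but within a treatment the 3 contrasts share the WT libraries. How many of the 4902 genes kept 1 order of genotypes in both treatments was not computed.

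**Figure D2:**
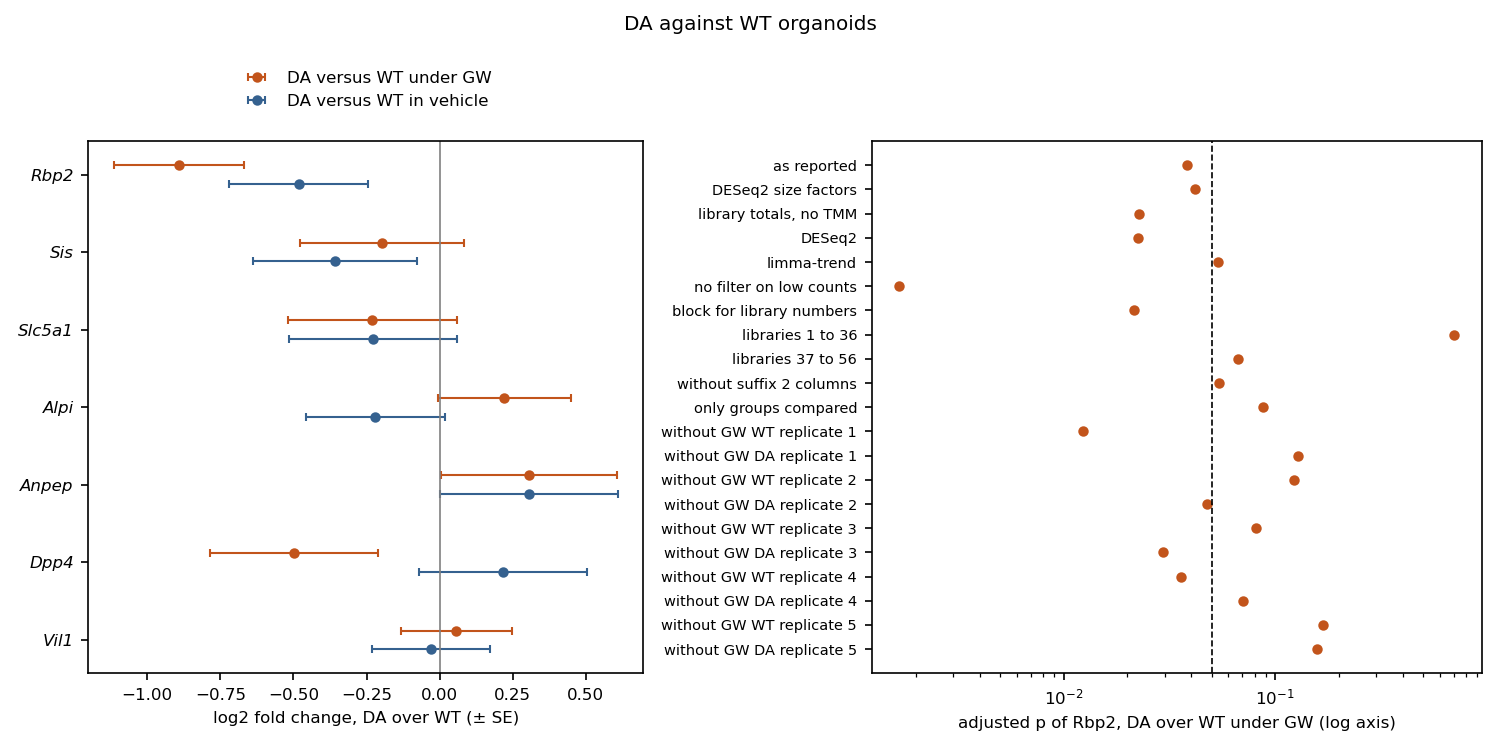
Left, log2 fold change of DA over WT (± SE) for the 7 members, under GW (above) and in vehicle (below). Right, adjusted p of Rbp2 for DA over WT under GW (log axis) in the fit as reported and under each alternative, with the dashed line at 0.05; the point within libraries 1 to 36 (0.703) lies farthest to the right.

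Fitted values of Rbp2 were higher under GW than in vehicle by 0.37 to 0.50 on the log2 scale in A, D and WT and by 0.01 in DA, and none of these differences passed. Rbp2 had 125, 93.3, 184, 137 and 192 CPM in GW-treated A organoids, against 62.0, 153, 116, 90.8 and 102 CPM in vehicle-treated A organoids. It had 144, 167 and 169 CPM in GW-treated D organoids, against 104, 130.2, 158, 109 and 110.2 CPM in vehicle-treated D organoids. In both genotypes the groups overlapped, with 2 GW libraries above all vehicle libraries.

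In WT, 3 of the 5 GW libraries lay above all vehicle libraries and 1 lay below all of them, and the means were 179 ± 48.8 CPM under GW and 131 ± 20.7 CPM in vehicle (SD, n = 5 each). In DA the means were 98.1 ± 22.4 CPM under GW (SD, n = 5) and 97.8 ± 6.82 CPM in vehicle (SD, n = 4). The log2 fold changes of GW over vehicle were 0.01 ± 0.24 in DA, 0.50 ± 0.22 in A, 0.37 ± 0.25 in D and 0.42 ± 0.22 in WT (SE). The percentage of the 4902 genes that passed was 0 in DA, 0.306 in A, 0 in D and 0.408 in WT. The mean over the 4 genotypes, a comparison added after the data had been seen, was 0.33 ± 0.12 for Rbp2 (SE, BH-adjusted p = 0.349 by edgeR, where 0.653% of genes passed). The response in DA minus that in WT was -0.41 ± 0.33 (SE, edgeR, BH-adjusted p = 1.00), so a difference in response between these genotypes was not shown.

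Sis encodes sucrase-isomaltase, the hydrolase that splits sucrose and starch fragments (chromosome 3, 72888557 to 72967863, minus strand). Slc5a1 encodes SGLT1, the sodium-coupled carrier that takes up glucose and galactose (chromosome 5, 33104219 to 33162870, plus strand). The fitted values of both were lower under GW than in vehicle in each of the 4 genotypes, as they were for 8.59% of the 4902 genes, and no single comparison passed.

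Sis had 102, 175, 93.0, 85.1 and 91.8 CPM in GW-treated DA organoids, against 148, 184, 103 and 157 CPM in vehicle-treated DA organoids. It had 91.3, 165, 88.3, 123 and 129 CPM in GW-treated A organoids, against 212, 157, 163, 187 and 229 CPM in vehicle-treated A organoids. In both genotypes 4 of the 5 GW libraries lay below all vehicle libraries, and replicate 2 of GW was the exception. Sis had 224, 98.4 and 84.6 CPM in GW-treated D organoids, against 203, 212, 145, 203 and 102 CPM in vehicle-treated D organoids. It had 123, 186, 75.3, 126 and 103 CPM in GW-treated WT organoids, against 99.0, 195, 131, 259 and 222 CPM in vehicle-treated WT organoids. These groups overlapped as well. In D, 2 GW libraries lay below every vehicle library, but the highest of the D libraries was also a GW library. In WT only 1 GW library lay below every vehicle library.

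The log2 fold changes of Sis, GW over vehicle, were -0.44 ± 0.29 in DA, -0.63 ± 0.27 in A, -0.33 ± 0.31 in D and -0.60 ± 0.27 in WT (SE). The mean over genotypes was -0.50 ± 0.14 (SE, BH-adjusted p = 0.134 by edgeR) and did not pass. Within libraries 1 to 36 this mean was -0.30 and did not pass (edgeR, BH-adjusted p = 0.972). Within libraries 37 to 56 it was -0.87, where GW in D and vehicle in DA had 1 library each. A difference between the runs of library numbers was not tested. With no filter on low counts the mean over genotypes passed, where 0.267% of 20192 genes did (BH-adjusted p = 9.8e-05 by edgeR). There it was -0.52 with an SE of 0.098, so the effect hardly moved while the fitted SE was smaller than the 0.14 above. It also passed without replicate 2 of GW in WT, replicate 1 of GW in D or replicate 2 of GW in DA (BH-adjusted p of 0.0454, 0.0134 and 0.0403 by edgeR). These libraries had the highest Sis of their groups, so leaving any of them out lowers the GW mean of its group. The mean over genotypes passed in no other alternative that kept more than 1 library in each group.

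Slc5a1 had 62.5, 116, 47.6, 68.5 and 60.5 CPM in GW-treated DA organoids, against 83.4, 126, 72.0 and 79.5 CPM in vehicle-treated DA organoids. It had 60.1, 79.7, 37.9, 68.3 and 87.4 CPM in GW-treated A organoids, against 113, 66.1, 75.5, 120.4 and 145 CPM in vehicle-treated A organoids. In DA, 4 of the 5 GW libraries lay below all vehicle libraries, and in A 2 of 5 did. Slc5a1 had 124, 57.7 and 64.8 CPM in GW-treated D organoids, against 160.4, 108, 106, 117 and 71.5 CPM in vehicle-treated D organoids. It had 80.8, 128, 33.0, 74.0 and 88.8 CPM in GW-treated WT organoids, against 92.2, 98.3, 63.4, 119 and 135 CPM in vehicle-treated WT organoids. In D, 2 GW libraries lay below all vehicle libraries, and in WT 1 did. The GW library that was high for Sis was also the highest of its group for Slc5a1 in DA, D and WT.

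The log2 fold changes of Slc5a1, GW over vehicle, were -0.35 ± 0.30 in DA, -0.60 ± 0.28 in A, -0.44 ± 0.32 in D and -0.35 ± 0.28 in WT (SE). Their mean was -0.44 ± 0.15 (SE, BH-adjusted p = 0.305 by edgeR). It passed only with no filter on low counts among the alternatives run (edgeR, BH-adjusted p = 0.0107). There it was -0.46 with a smaller SE of 0.11. This mean was -0.34 within libraries 1 to 36 and -0.56 within libraries 37 to 56. Of the 10 stem cell markers, 7 were tested, and in the mean over genotypes 6 were lower and 1 passed, Olfm4, a secreted protein of crypt base stem cells (log2 fold change -0.74 ± 0.15, SE, BH-adjusted p = 0.00385 by edgeR). Within libraries 1 to 36 and 37 to 56 alone, Olfm4 had -0.78 and -0.68 and did not pass. The 10 stem cell genes summed to 217 to 454 CPM in GW libraries and to 258 to 498 CPM in vehicle libraries, and none was at 0. Of the 7 enteroendocrine markers, 4 were tested, all 4 were higher in the mean over genotypes, as were all 6 goblet genes tested (median 0.15) and 5 of 6 Paneth genes (median 0.05), and none passed. The part of these other cells in the values of Sis and Slc5a1 was not tested.

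**Figure D3:**
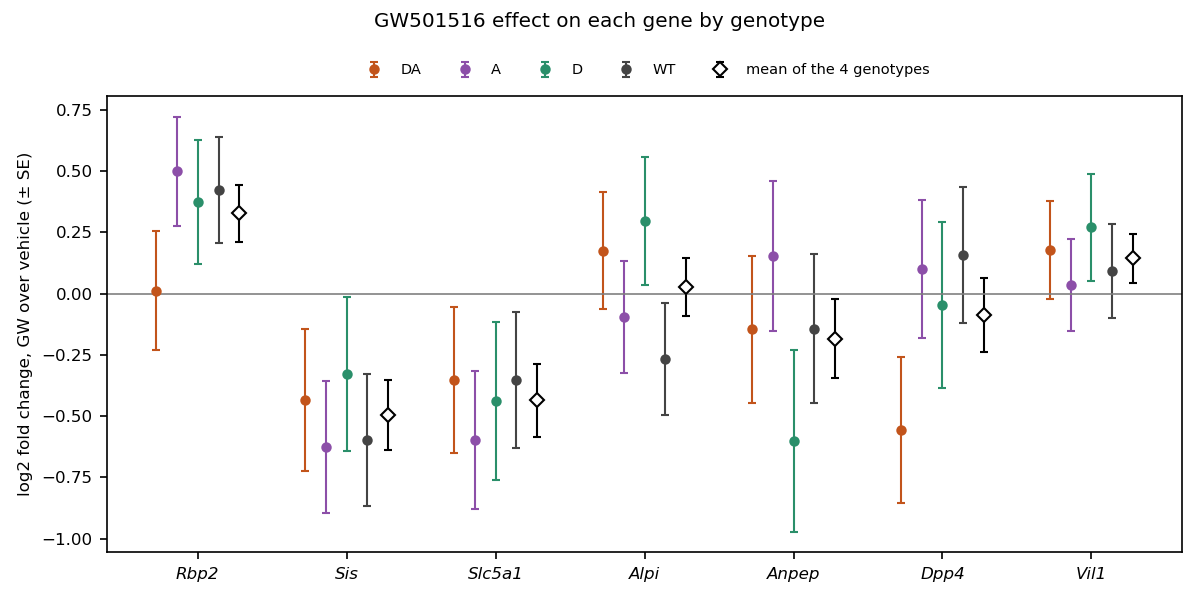
Log2 fold change of GW over vehicle (± SE) for the 7 members in DA, A, D and WT and as the mean of the 4 genotypes (diamonds). Sis and Slc5a1 lie below 0 in each genotype (means -0.50 and -0.44). Rbp2 lies above 0, at only 0.01 in DA, and Vil1 lies between 0.04 and 0.27.

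Among the other hydrolases, Alpi encodes intestinal alkaline phosphatase, which removes phosphate from bacterial lipopolysaccharide and nucleotides. It lies on chromosome 1 (87098002 to 87101606, minus strand), near the related Akp3, and how tags were divided between the paralogs is not given in the sources used here. Its GW effect differed in sign between genotypes, with 0.18 ± 0.24 in DA, -0.10 ± 0.23 in A, 0.30 ± 0.26 in D and -0.27 ± 0.23 in WT (log2 fold change ± SE), and its mean was 0.03 ± 0.12. Anpep encodes aminopeptidase N, which trims residues from the amino ends of peptides (chromosome 7, 79821803 to 79861059, minus strand). Its GW effects were -0.15 ± 0.30 in DA, 0.15 ± 0.31 in A, -0.60 ± 0.37 in D and -0.14 ± 0.31 in WT. In D it had 39.2, 15.0 and 36.6 CPM under GW, against 45.0, 59.4, 27.7, 52.6 and 46.4 CPM in vehicle, so the groups overlapped.

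Dpp4 encodes dipeptidyl peptidase 4, which releases dipeptides and inactivates the incretin hormones (chromosome 2, 62330073 to 62412231, minus strand). Its largest GW effect was in DA, where it had 70.9, 48.1, 28.9, 33.2 and 39.1 CPM under GW, against 77.3, 83.4, 37.01 and 60.5 CPM in vehicle. The groups overlapped, and the difference was -0.56 ± 0.30 on the log2 scale (SE, BH-adjusted p = 1.00 by edgeR). The other genotypes had 0.10 ± 0.28 in A, -0.05 ± 0.34 in D and 0.16 ± 0.28 in WT. The response in DA minus that in WT was -0.72 ± 0.41 (SE) and did not pass, with an unadjusted p of 0.0841 and a BH-adjusted p of 1.00 by edgeR.

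Vil1 encodes villin, which bundles and severs the actin filaments of microvilli (chromosome 1, 74409376 to 74435559, plus strand). Its means ran from 113 ± 30.9 CPM for vehicle in WT (SD, n = 5) to 139.8 ± 26.7 CPM for GW in D (SD, n = 3), and its GW effects were 0.18 ± 0.20 in DA, 0.04 ± 0.19 in A, 0.27 ± 0.22 in D and 0.09 ± 0.19 in WT (log2 fold change ± SE). It was higher by 0.28 ± 0.09 in libraries 37 to 56 than in libraries 1 to 36 (log2 scale, SE, BH-adjusted p = 0.0155 by edgeR). No other member passed that contrast, which 24.2% of the 4902 genes passed. Rbp2 and Vil1 were higher under GW in all 4 genotypes, as were 8.96% of the 4902 genes, with Rbp2 at 0.01 in DA.

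The 2 members below the filter were close to the limit of this depth. Slc15a1 encodes PEPT1, the proton-coupled carrier of dipeptides and tripeptides (chromosome 14, 121459621 to 121505252, minus strand), and it had 50 counts over all 37 libraries, 0 to 5 per library and 0 in 11 libraries. In A it had 0, 0, 0, 1 and 0 counts in GW libraries, against 2, 0, 1, 2 and 2 counts in vehicle libraries. With no filter on low counts this difference did not pass (BH-adjusted p = 0.867 by edgeR), and the groups overlapped. Mep1a encodes the alpha subunit of meprin, a secreted and membrane-bound metalloprotease (chromosome 17, 43474324 to 43502812, minus strand), and it had 109 counts, 0 to 8 per library and 0 in 4 libraries. In DA it had 0, 2, 1, 2 and 0 counts in GW libraries, against 2, 5, 8 and 1 counts in vehicle libraries (BH-adjusted p = 0.909 by edgeR with no filter). With no filter, neither gene passed in any comparison, so a change in either was neither shown nor excluded at this depth.

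For the other 6 members, the log2 fold changes of DA, A and D over WT lay between -0.50 and 0.41 in both treatments, and none passed. Under GW, DA over WT gave -0.50 ± 0.29 for Dpp4, -0.23 ± 0.29 for Slc5a1, -0.20 ± 0.28 for Sis, 0.06 ± 0.19 for Vil1, 0.22 ± 0.23 for Alpi and 0.30 ± 0.30 for Anpep (SE). In vehicle DA over WT gave -0.36 ± 0.28 for Sis and 0.31 ± 0.30 for Anpep, the lowest and highest of these 6. A over WT passed for no member, where 0.184% of genes passed under GW and 0.0816% in vehicle. D over WT passed for no member either, where 0.0612% of genes passed under GW and 0.0408% in vehicle. The SE of 0.19 to 0.38 on these contrasts leaves changes of that size undetected. The differences of the GW response between genotypes passed for no member, where the shares of genes that passed were 0.0816% for DA minus WT and 0% for A minus WT and for D minus WT.

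Lists of related genes set the members in their pathways. Of 18 brush border hydrolases 10 were tested, of 19 nutrient and ion transporters 13, and of 16 genes of brush border structure 12. None of these passed in any GW effect or in DA over WT in either treatment. Members were not left out of the lists, so the counts and medians below are not independent of the members' own values. The lists were also chosen with earlier results of these data known. In DA under GW, 9 of the 10 hydrolases were lower than in vehicle, with a median log2 fold change of -0.20 against -0.00082 for all genes tested, while 6 of 10 were lower in A, 6 in D and 7 in WT (medians -0.02, -0.06 and -0.19). Of the 13 transporters, 8 were lower under GW than in vehicle in DA, 7 in A, 6 in D and 10 in WT, with median log2 fold changes of -0.09, -0.21, 0.07 and -0.25, against -0.0018 to 0.0070 for all genes. In WT the smallest p in this list were those of Slc3a2, the heavy chain shared by several amino acid carriers, at -0.57 ± 0.21 and of Slc3a1, a subunit of the cystine and basic amino acid carrier, at -0.64 ± 0.27 (log2 fold change ± SE), and neither passed. The brush border structure list was divided evenly in the mean over genotypes, with 6 higher and 6 lower. Of 14 enterocyte transcription factors 8 were tested, and 1 passed for GW in WT, Creb3l3, a membrane-anchored factor of lipid metabolism, at 1.23 ± 0.30 (SE, BH-adjusted p = 0.0477 by edgeR). It missed the threshold without replicate 2 or 5 of GW or 3, 4 or 5 of vehicle (edgeR, BH-adjusted p = 0.128 to 0.334). It also missed it with DESeq2's size factors, limma-trend, only the compared groups or either run of library numbers alone (BH-adjusted p = 0.0502 to 0.777). Of 16 other enterocyte genes 14 were tested and none passed in these comparisons.

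The list for absorption of lipid, sterol and retinoid, which includes Rbp2, was the one with further calls in DA. Under GW 3 of its 15 tested members were lower in DA than in WT and passed, Rbp2, Fabp1 and Fabp2, where 0.592% of all 4902 genes did, and 14 of 15 were lower, with a median of -0.35 on the log2 scale against -0.0044 for all genes. Fabp1 and Fabp2 encode the liver-type and intestinal fatty acid-binding proteins, which ferry fatty acids through the enterocyte. Fabp1 differed by -2.14 ± 0.28 on the log2 scale (SE, BH-adjusted p = 2.8e-05 by edgeR) and Fabp2 by -0.83 ± 0.19 (BH-adjusted p = 0.0229 by edgeR). Fabp2 missed the threshold within each run of library numbers (BH-adjusted p = 0.205 and 0.0864 by edgeR), without the columns of suffix 2 (0.0545), and without replicate 2 or 5 of GW in WT or replicate 3, 4 or 5 of GW in DA (BH-adjusted p = 0.0509 to 0.0924 by edgeR). In vehicle 12 of the 15 were lower in DA than in WT and none passed. For GW over vehicle, 5 of the 15 were higher in DA, 10 in A, 13 in D and 10 in WT, with medians of -0.13, 0.20, 0.21 and 0.25 against the same -0.0018 to 0.0070 for all genes. Fabp1 passed in A and in WT, at 1.28 ± 0.28 in A and 1.18 ± 0.28 in WT (log2 fold change ± SE). It missed the threshold in A without replicate 1, 2, 4 or 5 of vehicle or 2, 3 or 5 of GW (edgeR, BH-adjusted p = 0.0546 to 0.143), and in WT without replicate 1, 3, 4 or 5 of vehicle or 2 or 5 of GW (0.105 to 0.334). Within libraries 1 to 36 alone it missed it in A (edgeR, BH-adjusted p = 0.334) and in WT (0.132), and in WT also with DESeq2's size factors (0.0576) and limma-trend (0.0788).

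Across libraries, the members did not vary as 1 group. Pearson's r of log2 CPM, after subtracting each group's mean, was computed for the 21 pairs of the 7 members over 37 libraries, with p from 100000 permutations of libraries within groups, two-sided and adjusted over the 21 pairs by Benjamini-Hochberg. Sis and Slc5a1 had r = 0.81 and Spearman's rho = 0.81, with a permutation p of 1e-05 for each, the smallest that these permutations can give (adjusted p = 0.00021). Without the 2 libraries farthest from the median of Sis, r was 0.77. It was 0.84 over the 23 libraries numbered 1 to 36 and 0.68 over the 12 numbered 37 to 56 in groups with more than 1 such library.

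Dpp4 varied with both: r was 0.59 with Slc5a1 (rho = 0.58, permutation p = 0.00089 and 0.00102, adjusted p = 0.00934 and 0.0107) and 0.56 with Sis (rho = 0.52, permutation p = 0.00311 and 0.00638, adjusted p = 0.0218 and 0.0447). Without the 2 farthest libraries these were 0.52 and 0.53. Within libraries 1 to 36 they were 0.54 and 0.36, and within libraries 37 to 56 they were 0.70 and 0.69. Rbp2 had r between -0.10 and 0.24 with the other 6 members, and none passed, but its r with Slc5a1 was -0.41 within libraries 1 to 36 and 0.62 within libraries 37 to 56. Vil1 and Dpp4 had r = 0.37 over all libraries and did not pass, and their r was 0.74 within libraries 1 to 36 and -0.62 within libraries 37 to 56. Libraries share their depth and their mixture of cells across genes, and the part of either in these relations was not tested.

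**Figure D4:**
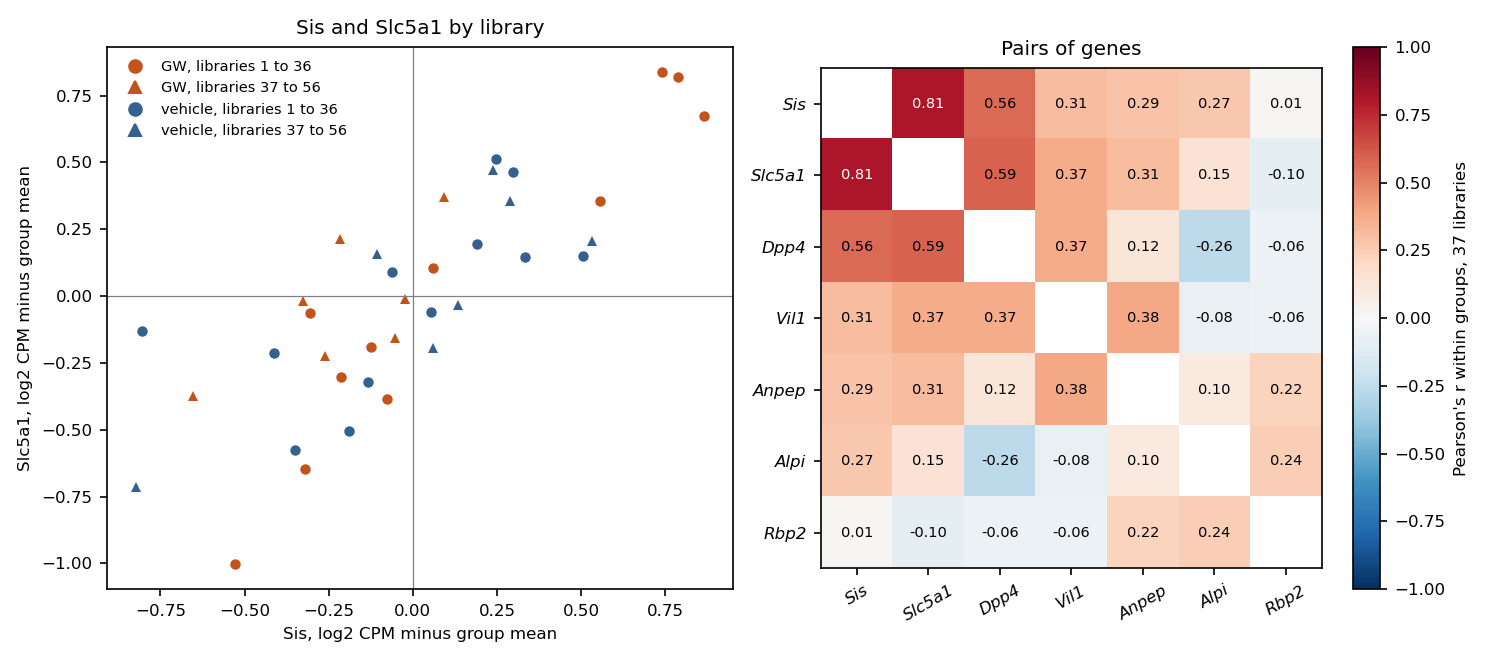
Left, Slc5a1 against Sis in 37 libraries, each as log2 CPM minus its group's mean (circles, libraries 1 to 36; triangles, libraries 37 to 56); the points rise together (r = 0.81). Right, Pearson's r for each pair of the 7 members over the same values, from -0.26 (Alpi and Dpp4) to 0.81.

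The genes most like each member were taken as the 3 with the highest Pearson's r of log2 CPM over the 37 libraries, group means included, among 4554 genes, as a description. For Rbp2 these were Fabp2 (r = 0.80), Fabp1 (0.79) and Apoc2 (0.75), which encodes a lipoprotein cofactor of lipoprotein lipase. For Slc5a1 they were the carboxylesterase Ces2e (0.80), Cth, an enzyme of cysteine synthesis (0.77), and Ifitm2 (0.71). For Sis they were Smim24, Clca4b and Ces2e, each at 0.68 to 0.69, so that Ces2e stood near both. For Dpp4, Cth was again among the 3, at 0.57, after Atp5c1 at 0.58. For Vil1, Tmed10, a carrier of the early secretory pathway, had the highest r at 0.66, for Anpep the lysosomal protease Ctsb at 0.67, and for Alpi Pdcd6ip at 0.59.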

How the data were processed

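Per the labels' protocols, RNA was extracted with TRI reagent and its polyadenylated part profiled by 3′ digital gene expression. The authors deposited 2 tables: whole-number counts per Ensembl gene, and log2 values. The deposited log2 values are log2 of CPM plus 1, judged by their back-transformed sum of 1000000 in each library. Scaled to the library's total count, 88.6% of the nonzero values were within 0.01 of a whole number, so the deposited counts may be rounded estimates. The submitters' processing notes name Salmon 1.1.0, R 3.6.2, edgeR 3.26.8 and mm10. How molecular identifiers were handled is not given in the sources used here. Of 57 columns 37 were used, and the treatment and genotype in a column's name set its group. Left out were 19 columns with the letters KD, found in no sample title, and 1 of 4 columns named GW in D. Column names hold no replicate numbers, so a replicate number here is the order of columns within its group.

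Symbols and positions were read from GENCODE for mm10 (54109 of 54352 identifiers matched). Low counts were removed with filterByExpr by group. The remaining 4902 genes were scaled with TMM and fitted with edgeR 4.0.16 (R 4.3.3) by quasi-likelihood, with the 8 groups sharing a dispersion. P-values were adjusted by Benjamini-Hochberg over all 4902 genes within a comparison, with a threshold of 0.05. SE came from the fit's information matrix and quasi-dispersion. CPM are counts over the library total. The members and the gene lists were chosen with earlier results of these data known. The text names all 9 members and, from the lists, genes that passed or, in some comparisons with none, the 2 with the smallest p. The mean GW effect over genotypes, with equal weights, was added after the data were seen.

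Alternatives were DESeq2's size factors, library totals with no TMM, DESeq2 1.42.0, limma-trend 3.58.1 (log2 CPM, prior count 2), no filter, a block for library numbers, each of the 2 runs of numbers alone, leaving out the 4 columns with a suffix 2, fitting only the groups compared, and leaving out each library. Totals of 353347 to 577557 counts per library limit the precision. Some genes are not reported here.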

Additional observations from a re-analysis of the deposited data

Results flagged for a closer look

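In 63 sets of values, 1 gene in 1 group of 4 or 5 libraries, 3 had a library whose gap to its nearest neighbour, relative to the range of the group, was above Dixon's 95% critical value. Chance flags about 1 in 20 such groups. Sis had 174.7 CPM in replicate 2 of GW in DA, while the other 4 libraries had 85.1 to 102 CPM. Dpp4 had 86.8 CPM in replicate 1 of GW in A, while the other 4 had 41.5 to 50.5 CPM. Slc15a1 had 2.01 CPM in replicate 4 of GW in A, which was 1 count, while the other 4 had 0.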

How the results depend on the processing

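No paired analysis was possible because the columns carry no replicate numbers. Among single values of members and of the list genes that passed, 545 of 590 kept their sign and their side of the threshold under alternatives other than leaving out a library, and 22 changed sign; leaving out 1 library in turn, 800 of 860 did and 28 changed sign. All 56 group levels kept within 1 SD with TMM factors in place of library totals. The lower Rbp2 in DA than in WT under GW kept its sign in all 20 alternatives run and passed in 9 of them. It missed the threshold under limma-trend, without the columns of suffix 2, with only the compared groups fitted, within either run of library numbers and without any of 6 single libraries (BH-adjusted p of 0.0538 to 0.703, log2 fold changes of -0.73 to -1.14). Unless stated, the cause of a change below was not tested.

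Counts of genes that passed were higher with no filter, where 20192 genes were tested: for GW over vehicle 10 in DA, 28 in A, 8 in D, 45 in WT and 54 in the mean, over WT under GW 110 in DA, 58 in A and 17 in D, in vehicle 80, 54 and 18, and for the response minus that in WT 20 in DA, 8 in A and 12 in D. Within libraries 1 to 36, with fewer samples, 3 passed for GW in A, 11 for GW in WT, 14 in the mean, 20 for DA and 19 for A over WT under GW, 23 for A and 4 for D in vehicle, and 2 for the response in DA minus WT. Within libraries 37 to 56, 8 passed for DA and 0 for D over WT in vehicle, 2 for A and 1 for D under GW, and 0 and 1 for the responses in DA and A minus WT. Without the columns of suffix 2, 0 passed for DA over WT in vehicle and for A over WT under GW. With only the compared groups, 9 passed for GW in A, 5 for A over WT under GW and 4 for D over WT in vehicle. For A over WT in vehicle, 7 passed with library totals, 8 with the block for library numbers and 1 with limma-trend. Limma-trend gave 9 for DA over WT in vehicle, 5 for A over WT under GW and 1 for the response in D minus WT. DESeq2 gave 1 for GW in DA and 7 for the response in DA minus WT, and the block gave 65 for DA over WT under GW.

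Sign changes concerned values that had not passed, all on the log2 scale. Within libraries 1 to 36, Dpp4 had 0.10 for GW in D and 0.19 in the mean, Alpi had -0.026 in the mean, and Rbp2 had 0.24 for D over WT in vehicle. Within libraries 37 to 56, Anpep had 0.37 for GW in DA, -0.032 in A, 0.46 in WT and 0.094 in the mean, Dpp4 had -0.51 in A and -0.17 in WT, Alpi had 0.29 in A, Rbp2 had -0.10 in DA, and Vil1 had -0.078 in DA, -0.091 in A, -0.0055 in the mean and -0.20 for DA over WT under GW. Without the columns of suffix 2, GW gave 0.038 for Anpep in WT, 0.023 for Alpi in A and -0.14 for Dpp4 in A, and Vil1 had -0.033 for DA over WT under GW. For GW effects, Vil1 had -0.001 in A with library totals and Rbp2 had -0.019 in DA with limma-trend.

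Leaving out 1 library, GW effects ranged from -0.11 to 0.14 for Rbp2 in DA, -0.32 to 0.14 for Anpep in DA and -0.29 to 0.19 in WT, -0.0091 to 0.079 for Vil1 in A and -0.071 to 0.23 in WT, -0.22 to 0.023 for Alpi in A and -0.046 to 0.084 in the mean, and -0.14 to 0.22 for Dpp4 in A and -0.37 to 0.26 in D. DA over WT under GW ranged from -0.44 to 0.032 for Sis, -0.49 to 0.019 for Slc5a1 and -0.082 to 0.22 for Vil1, and D over WT in vehicle from -0.24 to 0.0007 for Rbp2. Genes that passed numbered 6 to 15 for GW in A, 21 to 45 for DA, 5 to 10 for A and 1 to 3 for D over WT under GW, and 0 to 7 for DA, 0 to 10 for A and 1 to 2 for D in vehicle. Depth limits Slc15a1 and Mep1a most, with 50 and 109 counts in all.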
